A study of Mus musculus with 13 samples.

Results

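The Notch receptor genes Notch1, Notch2, Notch3 and Notch4, the ligand genes Dll1, Dll3, Jag1 and Jag2, and Rbpj, which encodes the DNA-binding partner of the receptors, were followed in C2C12, a mouse myoblast line that can be turned into muscle fibres in culture. They were found through the platform annotation of the arrays. All 9 listed genes had at least 1 probe set whose annotation named only that gene, which gave 19 probe sets for 9 of the 18193 genes measured. The cells were a single line grown in parallel flasks. They were grown nearly to confluence, held in low serum for a day and then returned to serum, and RNA was taken every 0.5 h. The 13 arrays used here ran from 0 to 6.0 h, a single array for each time, without replicates, and later times were not analysed here. By labelled time the arrays formed an early window (0.5 to 2.0 h of serum, 4 arrays), a middle window (2.5 to 4.0 h, 4 arrays), a late window (4.5 to 6.0 h, 4 arrays) and the low-serum state itself (0 h, 1 array). The title of the series names oscillating genes of somite formation.

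Notch receptors are single-pass membrane proteins that are activated by Delta-like and Jagged ligands on neighbouring cells. Ligand binding exposes the receptor to ADAM proteases and then to gamma-secretase, and the freed intracellular part enters the nucleus, joins RBPJ and switches on Hes and Hey repressor genes. In muscle precursors the pathway is known for holding back differentiation, and in the presomitic mesoderm it is part of the segmentation clock.

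How the deposited ratio was formed is not stated in the sources read. The values centre on 1 in each array and were read as ratios to a reference of the probe set, which hold changes over time and no level. Whether a marker or a Notch gene was present at all, and which gene was more abundant, could not be read from it. In 18 of the 19 probe sets the ratio was exactly 1 on a single array. Array medians over all probe sets lay between 0.977 and 1.00, and neighbouring arrays correlated at 0.495 to 0.751 across probe sets. The lowest correlations fell on the edges of the middle window, 0.495 between 2.0 and 2.5 h and 0.533 between 4.0 and 4.5 h. Neighbours correlated at 0.718 to 0.740 within the early, 0.556 to 0.655 within the middle and 0.674 to 0.751 within the late window. Array medians were 0.977 to 0.991 in the middle and 1.00 in the late arrays. The part of such array-wide steps in the window differences was not tested. The SD of the log2 ratios was widest at 0 h, at 0.318, against 0.217 to 0.299 in the early, 0.220 to 0.229 in the middle and 0.188 to 0.239 in the late arrays. The number of arrays limits the precision. The p-values measure the spread between neighbouring time points of 1 course, not between cultures, and the lone 0 h array was assumed to vary like the others. As these are bulk samples, fewer cells of a type and less RNA per cell cannot be told apart.

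The 3 receptor genes Notch1, Notch2 and Notch3 were lower in the middle and in the late window than in the early window, Jag2 was higher in the middle window, and Rbpj was higher in the late window. Dll1 was high at 0 h alone. At the level of gene values Notch4 and Dll3 passed in no comparison. The log2 range over the 13 arrays had a median of 0.617 across the 9 genes, beside 0.452 across all genes. It was smallest in Notch4 (0.311) and widest in Notch3 (1.77, a 3.40-fold range).

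Notch3, the receptor best known from vascular smooth muscle and also expressed in muscle precursors, changed most. Its gene value, the geometric mean of its probe sets' ratios, was 2.12 at 0 h and 2.78, 1.50, 1.25 and 1.22 in the early arrays. It was 1.01, 0.931, 0.953 and 0.916 in the middle arrays and 0.836, 0.854, 0.819 and 0.909 in the late arrays. Every middle and every late array therefore lay below every early array, and the highest value of the course came at 0.5 h, 1.31-fold of the 0 h array. The lowest, at 5.5 h, was 0.387-fold of the 0 h array. Both probe sets had this shape (Pearson's r = 0.907 over 13 arrays). They differed at 0.5 h, where 1421964_at read 3.29 and 1421965_s_at, whose suffix marks probes shared by several transcripts, read 2.36.

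Notch2, another of the receptors of muscle precursors, stayed up through the whole early window and came down after it. Its gene value was 1.23 at 0 h and 1.42, 1.30, 1.27 and 1.23 in the early arrays. It was 1.02, 0.934, 0.844 and 0.790 in the middle arrays and 0.864, 0.977, 0.788 and 0.881 in the late arrays. The middle and late arrays did not overlap with the early arrays. The probe sets agreed in direction and not in size. 1455556_at spanned 0.721 to 1.00 in the middle window and 0.622 to 0.919 in the late window, against 1.33 to 1.56 in the early window. 1451889_at spanned 0.865 to 1.05 in the middle and 0.926 to 1.04 in the late window, against 1.07 to 1.34 in the early window.

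Notch1, the receptor most studied in muscle stem cells, had the smaller change. Its gene value was 1.24 at 0 h and 1.43, 1.18, 0.988 and 1.04 in the early arrays. It was 0.902, 0.939, 0.981 and 0.919 in the middle arrays and 0.891, 0.907, 0.979 and 0.877 in the late arrays. The gap between the lowest early array and the highest middle array was narrow, and within each of its probe sets the middle and late arrays overlapped with the early arrays. Notch4, which is best known from endothelium, stayed between 0.904 (1.5 h) and 1.12 (3.5 h), with overlapping windows, and its 3 probe sets did not move together (r from -0.22 to 0.05).

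**Figure D1:**
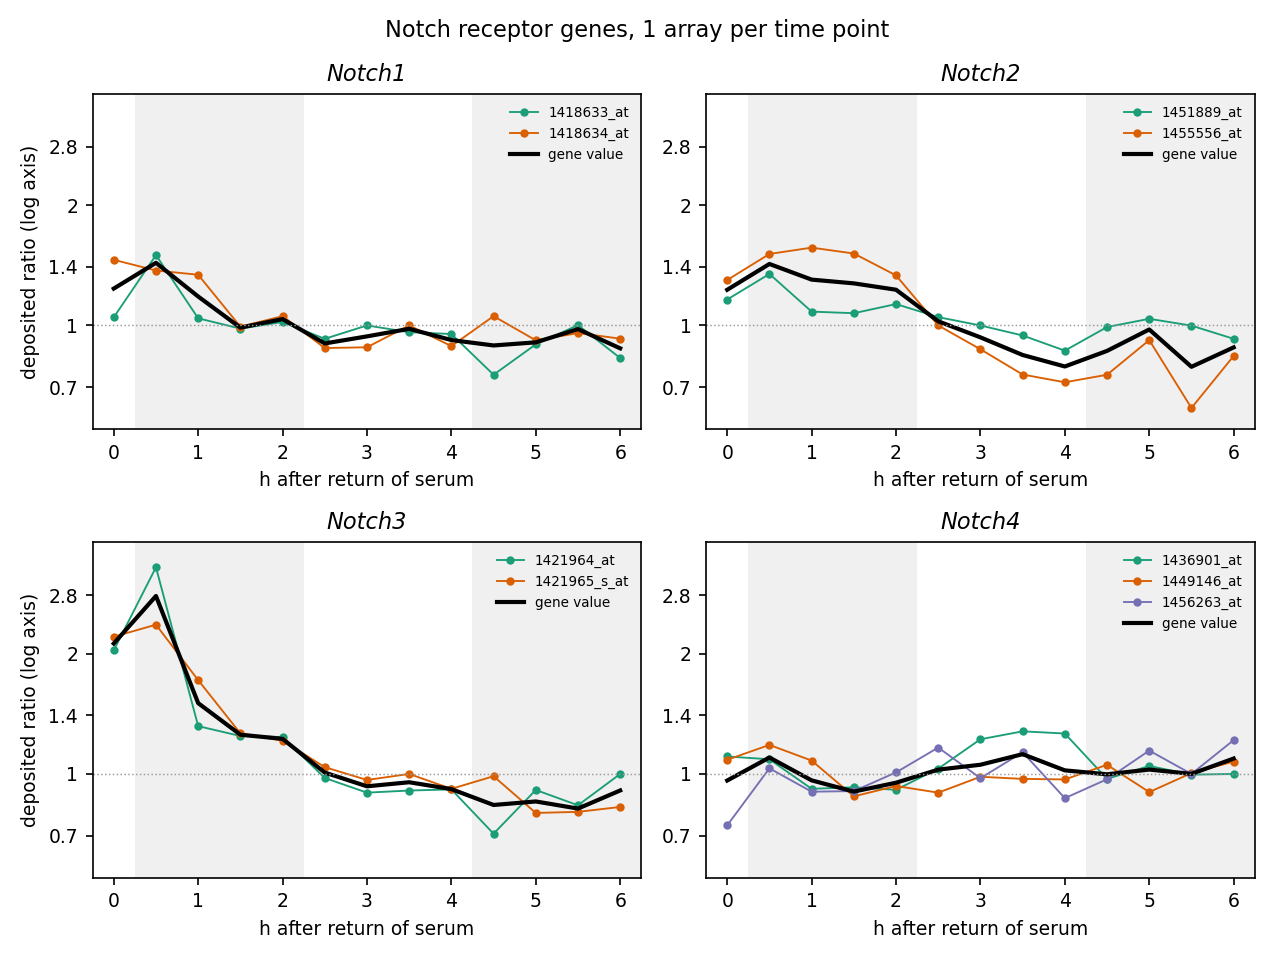
Deposited ratio (log axis) of each receptor probe set against hours after the return of serum, 1 point per array, with the gene value as a black line and the early and late windows shaded. In gene values, Notch3 peaks at 2.78 at 0.5 h and lies under 1 from 3.0 h on. Notch2 leaves its early values between 2.0 and 2.5 h, and the gene value of Notch4 stays near 1. The probe sets of Notch4 do not move together, and 1456263_at runs from 0.744 to 1.215.

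The promoters of these receptors, 250 bases before to 50 bases after the gene start in RefSeq (GRCm38.p6), are shown because the 3 receptor genes that were lower in the later windows share a feature in their letters. Capitals mark every GC box, GGGCGG or its reverse complement CCGCCC, and matches may overlap. Notch1 lies at chr2:26503773-26504072 (minus strand), Notch2 at chr3:98013288-98013587 (plus strand) and Notch3 at chr17:32166841-32167140 (minus strand). Jag2, at chr12:112929446-112929745 (minus strand), is set beside them as the ligand gene that changed in the same comparison in the other direction.
Notch1: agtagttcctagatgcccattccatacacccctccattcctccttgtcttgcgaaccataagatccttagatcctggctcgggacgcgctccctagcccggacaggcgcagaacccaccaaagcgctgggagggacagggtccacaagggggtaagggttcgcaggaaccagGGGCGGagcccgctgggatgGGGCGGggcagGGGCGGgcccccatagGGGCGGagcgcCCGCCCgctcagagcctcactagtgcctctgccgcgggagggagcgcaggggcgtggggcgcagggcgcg
Notch2: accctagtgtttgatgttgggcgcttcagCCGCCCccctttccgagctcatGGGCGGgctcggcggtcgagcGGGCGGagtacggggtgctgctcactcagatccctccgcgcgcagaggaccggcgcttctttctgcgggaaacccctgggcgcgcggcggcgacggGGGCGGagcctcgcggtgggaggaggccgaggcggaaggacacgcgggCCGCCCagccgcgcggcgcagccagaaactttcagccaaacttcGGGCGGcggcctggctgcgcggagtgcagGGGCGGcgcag
Notch3: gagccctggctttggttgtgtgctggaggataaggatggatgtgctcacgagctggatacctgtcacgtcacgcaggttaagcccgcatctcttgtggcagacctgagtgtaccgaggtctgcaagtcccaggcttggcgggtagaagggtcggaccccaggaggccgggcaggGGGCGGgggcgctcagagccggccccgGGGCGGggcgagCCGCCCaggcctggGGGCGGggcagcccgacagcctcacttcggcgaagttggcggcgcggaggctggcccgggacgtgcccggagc
Jag2: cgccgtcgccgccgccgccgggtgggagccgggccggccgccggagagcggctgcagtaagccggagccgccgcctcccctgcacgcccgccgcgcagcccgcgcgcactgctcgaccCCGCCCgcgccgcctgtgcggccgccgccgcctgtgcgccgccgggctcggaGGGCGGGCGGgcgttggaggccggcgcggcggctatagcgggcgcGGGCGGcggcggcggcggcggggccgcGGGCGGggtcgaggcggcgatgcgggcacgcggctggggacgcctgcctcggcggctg

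The GC box occurred 5 times in the Notch1 window, 7 times in Notch2, 4 times in Notch3 and 5 times in Jag2. At least 4 matches were found in 5.49% of the 32851 RefSeq promoters, and at least 1 in 35.7%. The cut of 4 was the lowest count among Notch1, Notch2 and Notch3, so these genes met it by construction. The 9 genes had 11 promoters, and 6 of the 11 held a GC box. The other matches were 1 each in the Dll3 promoter and in the second Rbpj promoter. These promoters were also rich in G and C, at 68.3% in Notch1, 73% in Notch2, 70% in Notch3 and 86% in Jag2, where the median over all promoters was 52.7%, and the GC box is itself made of G and C. The match to a motif is a description of letters, and its bearing on the time courses was not tested.

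In the middle against the early window, Notch1, Notch2 and Notch3 passed as lower and Jag2 as higher, and the other 5 genes did not pass. Tests were made on log2 ratios with limma over all 18193 genes, at a Benjamini-Hochberg adjusted p under 0.05. Of all genes, 14.4% passed as lower and 7.74% as higher in this comparison. The log2 difference was -0.74 ± 0.19 (SE) for Notch3 (adjusted p = 0.0119), -0.55 ± 0.08 for Notch2 (adjusted p = 7.65e-04) and -0.30 ± 0.09 for Notch1 (adjusted p = 0.0345). The median over the 9 genes was 0.00 and over all genes -0.00. Middle arrays lay wholly below the early arrays in the 3 receptor genes, as in 15% of all genes, and wholly above them in Jag2, as in 8.03% of all genes. Without the 0.5 h array the difference was -0.47 for Notch3, which still passed, and -0.19 for Notch1. The call of Notch1 was lost when the array at 0.5, 1.0, 2.5, 3.0, 3.5 or 4.0 h was left out (adjusted p of up to 0.0812). Of the probe sets of Notch1, 1418634_at passed (adjusted p = 0.0184) and 1418633_at did not (adjusted p = 0.213).

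In the late against the early window, which shares the early arrays with the comparison before it, the same 3 receptor genes passed as lower and Rbpj passed as higher. Of all genes, 9.29% passed as lower and 11.7% as higher. Notch3 differed by -0.90 ± 0.19 (adjusted p = 0.00298), Notch2 by -0.58 ± 0.08 (adjusted p = 2.54e-04) and Notch1 by -0.33 ± 0.09 (adjusted p = 0.0197). Late arrays lay wholly below the early arrays in these 3 genes, as in 11.1% of all genes, and wholly above them in Rbpj, as in 14.1%. Without the 1.0 h array or without the 6.0 h array Notch1 missed the threshold, with adjusted p of 0.0518 and 0.0548. Taken alone, its probe set 1418633_at passed (adjusted p = 0.04475) and 1418634_at did not (adjusted p = 0.0630). The 18S ribosomal RNA control at its 5′ end read 0.889 to 5.24 in the late arrays, against 0.411 to 1.4 in the early arrays, and its part in these differences was not tested.

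Against the low-serum state, none of the 4 receptor genes passed in the early window. Notch3 differed from 0 h by -0.41 ± 0.29 (adjusted p = 0.472), with its 0.5 h array above 0 h and its other 3 early arrays below it. Without the 0.5 h array this difference was -0.68 with an adjusted p of 0.00327. In the late window Notch3 was lower than at 0 h by -1.31 ± 0.29 (adjusted p = 0.00759) and Notch2 by -0.49 ± 0.13 (adjusted p = 0.0211). Notch1, at -0.44 ± 0.15 (adjusted p = 0.0515), and Notch4, at 0.10 ± 0.10 (adjusted p = 0.576), did not pass. The call of Notch2 was lost with quantile normalization (adjusted p = 0.0517) and with moved window edges (adjusted p = 0.0772). Notch1 passed without the 0.5 h array (adjusted p = 0.00704), the 1.5 h array (0.0365) or the 2.0 h array (0.0454), and with the variance trend (0.0450).

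Among the ligand genes, Dll1, a Delta ligand that activates Notch on neighbouring cells and is needed for orderly somite formation, was lower on every array in serum than on the 0 h array. Its only probe set read 1.77 at 0 h and 1.13, 1.01, 0.921 and 0.970 in the early arrays. It read 1.04, 1.05, 1.00 and 0.942 in the middle and 1.05, 0.956, 1.04 and 0.968 in the late arrays. The ratio at 0.5 h was 0.637-fold of that at 0 h, and the later values stayed between 0.521-fold and 0.592-fold. From 1.0 h on the ratios lay between 0.921 and 1.05. How many of all genes had every serum array below the lone 0 h array was not counted.

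Dll1 was the only one of the 9 genes to pass in the early window against 0 h, with a log2 difference of -0.82 ± 0.10 (adjusted p = 0.00171). In that comparison 1.81% of all genes passed as lower and 1.46% as higher, and among probe sets 1 of the 19 passed, where 3.02% of all probe sets did. The late window against 0 h gave -0.82 ± 0.10 for Dll1 (adjusted p = 3.76e-04). Both comparisons rest on the same lone 0 h array, which no alternative run could leave out of them. With quantile normalization the early difference of Dll1 from 0 h was -0.59. Late against 0 h, 3 of the 9 genes passed, each as lower (Notch2, Notch3 and Dll1). Of all genes, 9.9% passed as lower and 8.8% as higher. The median difference of the 9 genes was -0.28, beside -0.01 over all genes.

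Dll3, a divergent Delta protein that does not activate Notch from a neighbouring cell and takes part in somite formation, also had its highest value at 0 h. Its ratio was 1.23 at 0 h, 0.807, 0.939, 1.05 and 1.00 in the early arrays, and 0.888 to 1.04 afterwards. All later arrays lay below the 0 h array, an ordering whose share over all genes was not counted. The differences of -0.37 ± 0.12 in the early window (adjusted p = 0.103) and -0.28 ± 0.12 in the late window (adjusted p = 0.126) against 0 h did not pass.

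The gene values of the Jagged genes had another course, with a maximum at 3.0 h. Jag2 was 0.827 at 0 h and 0.840, 0.784, 0.908 and 1.04 in the early arrays. It was 1.08, 1.20, 1.06 and 1.05 in the middle arrays and 1.03, 0.990, 0.998 and 0.990 in the late arrays. Middle arrays lay wholly above the early arrays, and the 3.0 h array was 1.45-fold of 0 h. The gap was narrow, from 1.043 in the highest early to 1.049 in the lowest middle array. Within each of its probe sets the middle arrays overlapped with the early arrays. Middle against early, Jag2 differed by 0.31 ± 0.08 (adjusted p = 0.0122), and both of its probe sets passed (0.30 and 0.31). Of these, 1426431_at was highest at 3.0 h (1.33) and 1426430_at at 4.5 h (1.10), and late against early they differed by 0.06 and 0.29, without passing. Late against early the gene value differed by 0.17 ± 0.08 (adjusted p = 0.141) and late against 0 h by 0.28 ± 0.12 (adjusted p = 0.136). Without the 2.0 h array, and with the 2.0 h array moved into the middle window, its late difference from the early window was 0.25 and passed (adjusted p = 0.0147 and 0.0161).

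Jag1, the Jagged ligand whose loss causes Alagille syndrome in humans, was higher on each successive array up to 3.0 h, where it was 1.32-fold of 0 h, and was 0.979-fold of it at 5.5 h. The gene value hides a disagreement. Its probe set 1434070_at read 0.620 at 0 h, 0.755, 0.800, 0.883 and 1.09 in the early, 1.34, 1.32, 1.16 and 1.00 in the middle and 1.14, 0.907, 0.665 and 0.830 in the late arrays. Alone it was higher in the middle than in the early window by 0.46 (adjusted p = 0.0432). 1421105_at ran the other way (r = -0.52 with 1434070_at and -0.76 with 1421106_at) and was highest at 0 h, at 1.18. At the gene level the middle window differed from the early window by 0.18 ± 0.07 (adjusted p = 0.0687), which passed with array medians centred (adjusted p = 0.0434) and without the 2.0 h array (adjusted p = 0.0430). The late window differed from the early window by -0.03 ± 0.07.

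**Figure D2:**
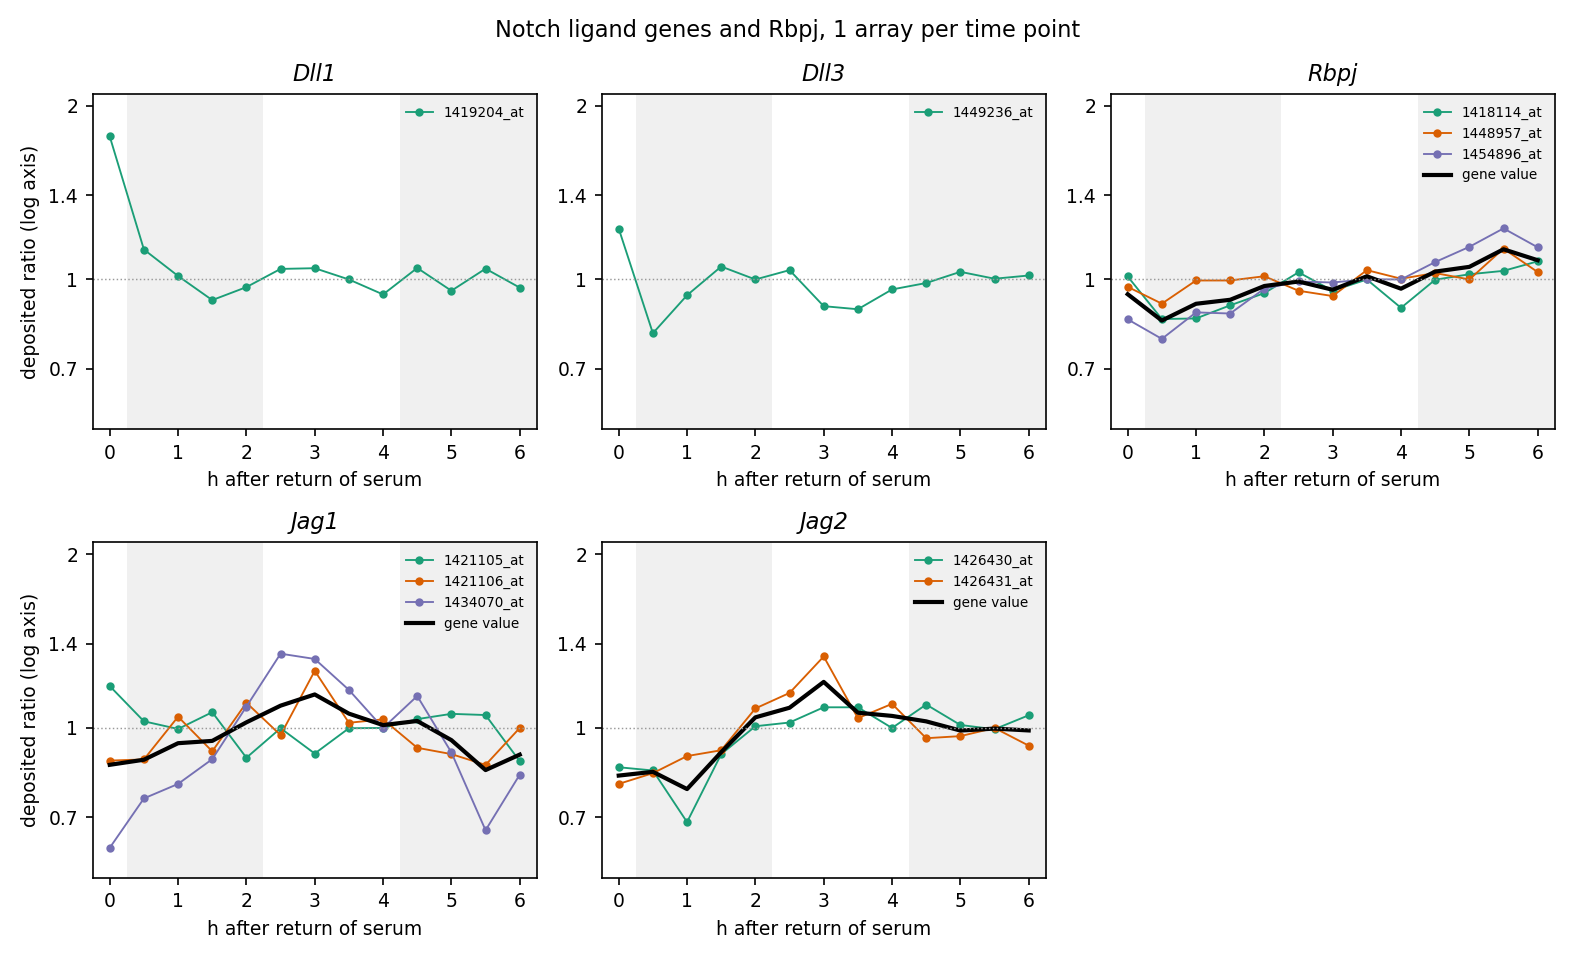
Deposited ratio (log axis) of each probe set of the ligand genes and Rbpj against hours after the return of serum, 1 point per array, with the gene value as a black line where a gene has several probe sets. Dll1 is high at 0 h alone (1.77), Jag2 and Jag1 peak at 3.0 h, and Rbpj has its highest value at 5.5 h.

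Rbpj, whose protein holds Notch target genes silent until a receptor fragment arrives and then activates them, was highest in the late window. Its gene value was 0.943 at 0 h and 0.849, 0.908, 0.922 and 0.974 in the early arrays. It was 0.992, 0.960, 1.01 and 0.964 in the middle arrays and 1.03, 1.05, 1.13 and 1.08 in the late arrays. Every late array lay above every early array, and the difference was 0.23 ± 0.05 (adjusted p = 0.0063). Of its probe sets, 1454896_at differed by 0.39 and 1418114_at by 0.22 and passed, while 1448957_at differed by 0.10 and did not. Late against 0 h the gene value differed by 0.19 ± 0.09 (adjusted p = 0.151). 1454896_at alone passed there, at 0.42 (adjusted p = 0.0191).

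The promoter of Rbpj is shown because it was the gene whose promoters held the core of the site that RBPJ itself binds, TGGGAA or its reverse complement TTCCCA, here in capitals. It lies at chr5:53590096-53590395 on the plus strand (GRCm38.p6, RefSeq).
Rbpj: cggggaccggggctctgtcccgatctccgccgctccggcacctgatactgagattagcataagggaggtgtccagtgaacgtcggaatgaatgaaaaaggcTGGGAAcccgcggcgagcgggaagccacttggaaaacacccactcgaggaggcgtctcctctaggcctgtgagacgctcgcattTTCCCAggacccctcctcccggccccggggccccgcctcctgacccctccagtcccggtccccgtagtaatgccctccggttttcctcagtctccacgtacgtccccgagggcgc

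The matches begin 149 and 65 bases before the gene start. The core occurred in 2 of the 11 promoters of these genes, both of them overlapping windows of Rbpj, and in 25.6% of all promoters. The AP-1 motif TGANTCA was found in 2 of the 11, in 1 Dll1 promoter and in that of Notch4, and in 7.81% of all. The E-box CACGTG (7.15% of all) and the cAMP response element TGACGTCA (1.79% of all) were found in none of the 11. All motifs were read on both strands.

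**Figure D3:**
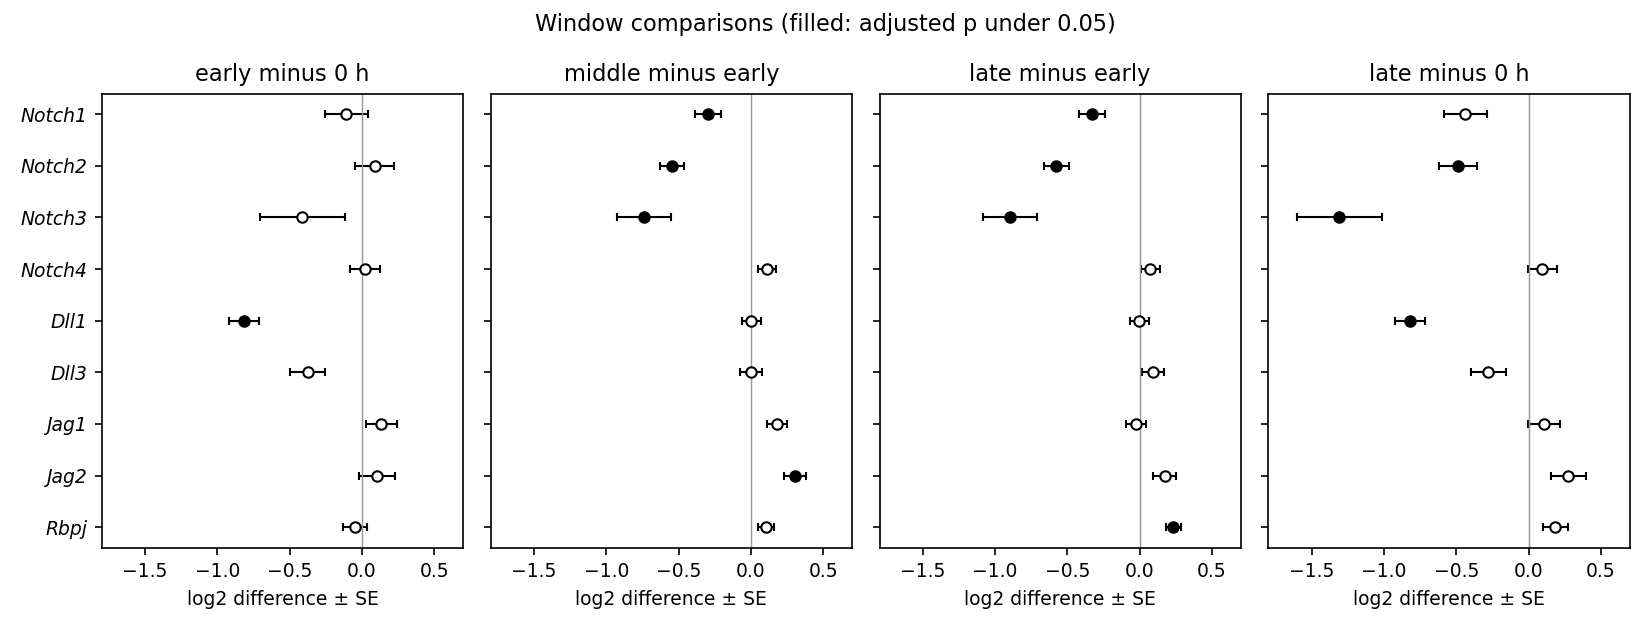
Log2 difference (± SE, horizontal axis) of the 9 genes in the 4 window comparisons, filled where the adjusted p is under 0.05. Dll1 is the only filled point in early minus 0 h (-0.82) and is at -0.82 again in late minus 0 h, where Notch3 lies further left (-1.31), and Notch1, Notch2 and Notch3 lie left of 0 in both comparisons with the early window.

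By single probe sets, 9 of the 19 passed in the middle against the early window, 4 as higher and 5 as lower, where 18% of all probe sets passed. Both probe sets of Notch2, of Notch3 and of Jag2 were among the 9, and probe sets of the same gene are not independent. Late against early, 6 of 19 passed (2 higher, 4 lower), where 15.3% of all did. Late against 0 h, 7 of 19 passed (2 higher, 5 lower), where 14.7% of all did. Calls that the gene value did not show came, late against 0 h, from 1418634_at of Notch1 (-0.60) and 1454896_at of Rbpj (0.42). Middle against early, such a call came from 1434070_at of Jag1 (0.46), and Notch4 gave calls of this kind as well. 1436901_at was higher in the middle than in the early window by 0.32 (adjusted p = 0.0141), and 1456263_at was higher in the late window than at 0 h by 0.53 (adjusted p = 0.0334). The remaining probe sets of Notch4 did not pass in these comparisons.

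A smooth course over the 13 arrays, fitted as a natural spline of time, passed in 7 of the 9 genes, where 38% of all genes passed. Notch3 had an adjusted p of 1.50e-05, Notch2 of 3.78e-05, Dll1 of 5.19e-04, Jag2 of 7.61e-04, Notch1 of 0.00249, Jag1 of 0.00383 and Rbpj of 0.0313. Notch4 (adjusted p = 0.376) and Dll3 (adjusted p = 0.877) did not pass. Among probe sets 10 of the 19 passed, where 30.7% of all did. Without the 0 h array Dll1 no longer passed (adjusted p = 0.557) and Dll3 did (adjusted p = 0.0179). Rbpj missed the threshold in each of 5 fits that left out the array at 0.5, 1.0, 1.5, 5.0 or 5.5 h (adjusted p 0.0555 to 0.0839).

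An oscillation with a period of 2 h, near that of the mouse segmentation clock, passed in 0 of the 9 genes by limma, with an adjusted p of 0.998 in each, and in 0% of all genes. At an unadjusted p under 0.05 there were 0 of the 9 genes and 721 of 18193 genes (3.96%). At a period of 3 h 74 genes passed, and 0 of the 9 were among them. The fit left 7 residual degrees of freedom, and the smallest amplitude it could detect was not measured.

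The time courses of Notch1 and Notch3 were alike (r = 0.951 over the 13 arrays), Notch2 followed Notch3 at 0.847 and Notch1 at 0.763, and Jag1 followed Jag2 at 0.737. Rbpj ran opposite to Notch3 (r = -0.811). These points are consecutive samples of 1 course and share arrays. Among all other genes, Klf4 (a zinc-finger transcription factor, r = 0.974) and Sesn3 (0.969) were most like Notch2, Nckap5l (0.974) and Evc (0.969) most like Notch3, and Phc1 (0.955) and Ccna2 (cyclin A2, 0.952) most like Notch1. Clcf1 (a cytokine, 0.973) and Trim47 (0.960) were most like Jag2, Irx3 (0.917) and Osbp (0.908) most like Jag1, and Mast3 (0.930) and Itm2b (0.919) most like Dll1. Gars and Wars, which encode the glycyl- and tryptophanyl-tRNA synthetases, were most like Rbpj (0.972 and 0.969). For Dll3 the closest were Spink1 (0.850) and Prss36 (0.846), and for Notch4 Bbox1 (0.864) and AV039307 (0.857).

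Of 59 other genes of the pathway, 54 were measured. In the late against the early window 5 of these passed as higher and 14 as lower, beside the 11.7% and 9.29% of all genes given above, with a median of -0.08 beside 0.02 over all genes. In the middle against the early window 2 passed as higher and 14 as lower, beside 7.74% and 14.4% of all genes, with a median of -0.08. Late against 0 h, 4 passed as higher and 9 as lower, beside 8.8% and 9.9% of all genes. Early against 0 h only Myc passed, as higher (2.34 ± 0.25), beside 1.46% of all genes. None of the 54 passed for the 2 h oscillation. Values below are late against early.

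None of the 5 other ligands and Delta-like proteins passed. The Delta ligand gene Dll4 differed by -0.09 ± 0.10 and Dner by 0.08 ± 0.05. Among 13 genes of ligand endocytosis and receptor turnover, 4 were lower and none higher. Dtx4, a Deltex ubiquitin ligase, read 2.64 at 0 h, 2.76, 2.35, 1.75 and 1.43 in the early and 0.784 to 0.880 in the late arrays. It differed by -1.28 ± 0.15 (adjusted p = 4.73e-05). Dtx3 (-0.58), the Notch inhibitor Numb (-0.24) and the ubiquitin ligase gene Neurl1a (-0.17) were the others.

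Of 13 measured genes of receptor glycosylation and cleavage, 4 were lower and 1 higher. Lfng, a fringe enzyme that adds a sugar to the receptors and tunes their response to ligands, was lower by -0.42 ± 0.13 (adjusted p = 0.0284). The genes of the receptor-cleaving proteases Adam17 (-0.30) and Adam10 (-0.27) and the fucosyltransferase gene Pofut1 (-0.18) were lower, and the glucosyltransferase gene Poglut1 (0.29) was higher. None of the measured gamma-secretase subunit genes (Psen2, Psenen, Ncstn, Aph1a and Aph1b) passed.

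Of 13 measured RBPJ cofactor genes, 4 were lower and 2 higher. The acetyltransferase genes Kat2b (-0.47), Ep300 (-0.34) and Crebbp (-0.32) and the coactivator gene Maml1 (-0.19) were lower. Kat2a (0.40), also an acetyltransferase gene, and Sap30 (0.33), which encodes a subunit of a deacetylase complex, were higher.

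Of 10 Hes, Hey and other genes linked to Notch signalling, 2 were lower and 2 higher. Whether Notch regulates each of them in these cells was not tested. Heyl, a repressor gene of the Hes and Hey family, read 2.64 at 0 h, 2.27, 1.91, 1.82 and 1.82 in the early and 0.727 to 0.852 in the late arrays. Its late arrays lay wholly below its early arrays, with a difference of -1.32 ± 0.13 (adjusted p = 1.98e-05). Myc was also lower (-0.71 ± 0.16), and Ccnd1, which encodes cyclin D1, was higher (1.33 ± 0.10), as was Hes6 (0.22). Hes1 differed by 0.03 ± 0.26 and Hey1 by -0.26 ± 0.10 (adjusted p = 0.0914). Hes1 varied most within the early window, where it read 1.00, 2.23, 1.46 and 0.653.

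**Figure D4:**
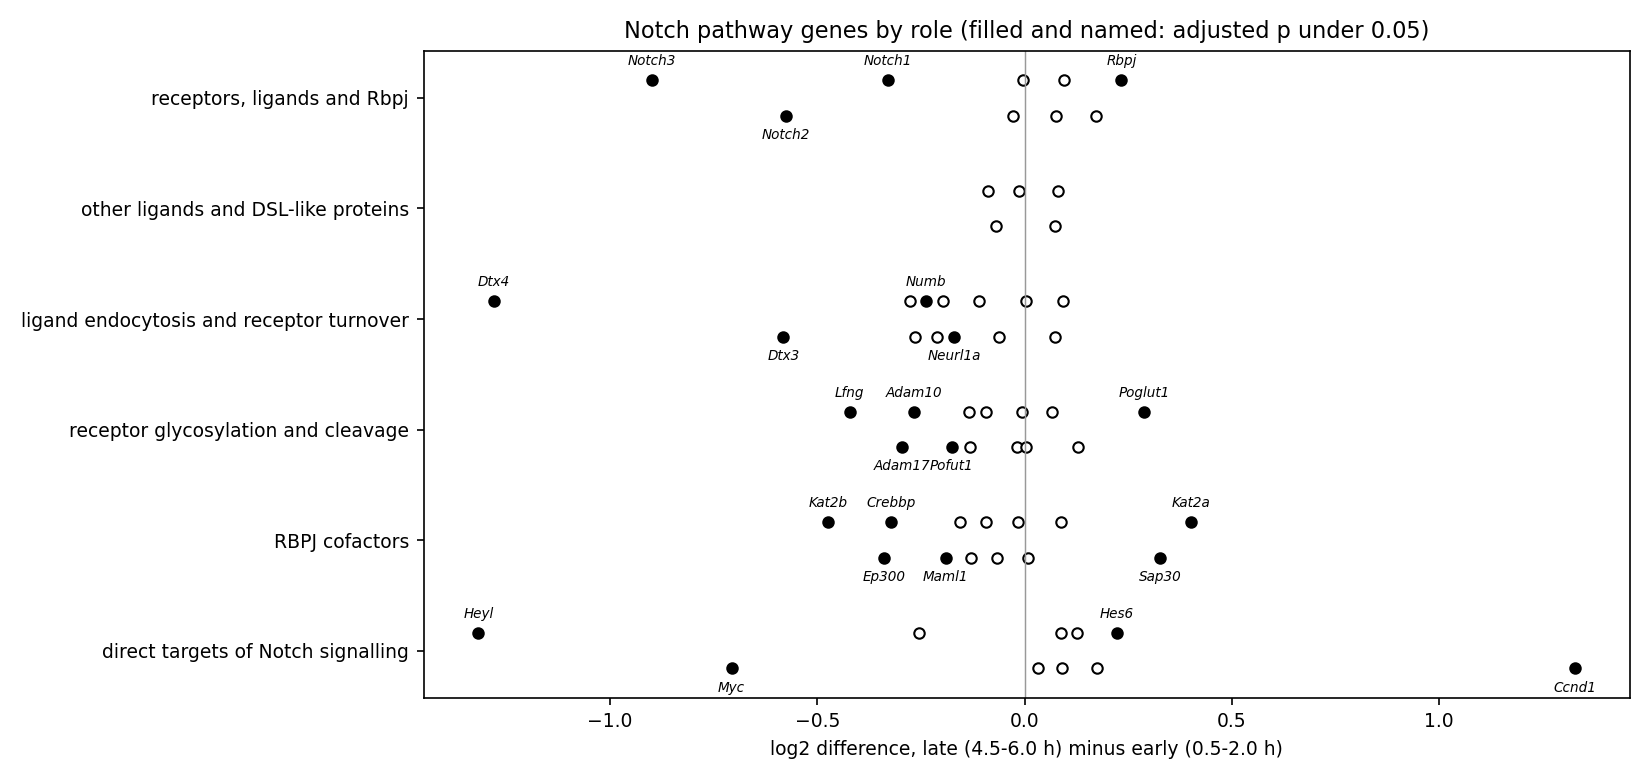
Log2 difference of the late against the early window (horizontal axis) for the 9 genes and the pathway genes by role, 1 point per gene, filled and named where the adjusted p is under 0.05. Heyl and Dtx4 lie furthest left, beyond Notch3, and Ccnd1 lies furthest right.

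Marker lists were read beside these results. Of 10 myoblast markers 0 passed in either direction in the late against the early window. In this comparison 11.7% of all genes passed as higher and 9.29% as lower. Of 8 differentiated muscle markers 6 were higher (Tnnt1 by 0.49, Acta1 by 0.45, Mymk by 0.44 and Myog by 0.34 among them) and 1, Ttn, was lower by -0.29. Of 6 endothelial markers 1, Tek, was lower by -0.28, and 0 of 5 blood and 0 of 4 fibroblast markers passed. In the middle against the early window the myoblast factor gene Myf5 (-0.60) and Ttn (-0.38) were lower, and no other marker passed. There, 14.4% of all genes passed as lower and 7.74% as higher. Early against 0 h the myoblast marker Sdc4 was higher (1.50) and the fibroblast marker Pdgfra lower (-0.42). Among all genes 1.46% passed as higher and 1.81% as lower there. Late against 0 h Sdc4 (1.47) and the blood marker Adgre1 (0.55) were higher and Pdgfra (-0.58) and the myoblast marker Cdh15 (-0.57) lower. The shares of all genes there were 8.8% higher and 9.9% lower. The ratios give no summed level and do not show which markers were absent. The part of these markers in the differences of Notch1, Notch2, Notch3, Dll1, Jag2 and Rbpj was not tested.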

How the data were processed

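RNA from C2C12 cells at 13 time points was hybridised to 1 Affymetrix mouse array each. The authors deposited a linear ratio for each probe set and array. RMA was used, per the submitters' processing notes, with no version. How the ratio was formed is not stated in the sources read. The table held 45101 probe sets, of which 45037 remained without 64 array controls. The platform annotation named 1 gene for 34945 of them, several for 932 and none for 9160. A gene was represented by its probe sets that name no other gene, averaged as log2 ratios with no offset, and a filter on dim probe sets was not possible. No pair of arrays held identical values. Batches were not tested, as no array dates were at hand.

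All 13 arrays entered 1 fit of the window means with limma 3.58.1 (two-sided tests from lmFit and eBayes, 9 residual degrees of freedom) in R 4.3.3. The smooth course was a natural spline with 4 degrees of freedom and the oscillation a cosine and sine on a spline trend with 3, each with limma's moderated F test. Adjustment ran over all 18193 genes or all 45037 probe sets. The code was tested on simulated data. Python 3.11.15 with pandas 2.3.3, numpy 2.4.6 and matplotlib 3.10.9 made the tables and figures. Promoter sequences are RefSeq's (GRCm38.p6), matched by symbol, and no coordinates of the probe sets are given.

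The members, gene lists, tests and alternatives were chosen with earlier results of these data known. All 9 members are named, with the pathway genes past the threshold in the late against the early window and up to 4 others of a list, and the 2 genes with the highest Pearson's r for each member. Marker lists are given by their counts. Alternatives were quantile normalization, centred medians, a variance trend, single probe sets, moved window edges (0.5 to 1.5 h, 2.0 to 4.0 h), other splines, periods and trends, and leaving out each array. Fits without the 2.5 to 4.0 h arrays and without the 0 and 0.5 h arrays were added after the data were seen.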

Additional observations from a re-analysis of the deposited data

How the results depend on the processing

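No result past the threshold changed direction under any alternative run. Of 1035 values of single genes under the alternatives, 997 stayed on their side of the threshold, 22 no longer passed and 16 newly passed. Many of the 997 had not passed to begin with, those of the 2 h oscillation among them. The count is therefore no measure of how stable the calls were. Notch1 in the middle against the early window, for one, passed in 12 of 18 alternative runs. Among values not past the threshold, 20 changed sign. The 0 h array could not be left out of any comparison with 0 h, so no run there shows how far a call rests on it. Dll1 in both comparisons with 0 h, Notch2, Notch3 and Jag2 in the middle against the early window, Notch2, Notch3 and Rbpj in the late against the early window and Notch3 in the late window against 0 h passed in every alternative run, where the fit of single probe sets counts a gene by the probe set with its lowest p. Taken alone, probe sets 1451889_at of Notch2 and 1448957_at of Rbpj did not pass late against early. Counted by that probe set, 6 genes passed in the late window against 0 h, beside 3, a count that gives genes with several probe sets more chances to pass. A straight line in time and, chosen after the data were seen, leaving out the 0 and 0.5 h arrays each lowered the genes with a smooth course to 4, beside 7. Leaving out each array gave 1 to 2 genes in the early window against 0 h, 3 to 5 in the middle and 3 to 5 in the late window against the early window, 3 to 4 in the late window against 0 h, 6 to 7 for the smooth course and 0 in every fit for the oscillation. Over all genes, 594 passed in the early window against 0 h, beside 45 with quantile normalization, 250 with moved windows, 298 without the 1.5 h array, 363 without the 5.0 h array, 377 without the 1.0 h array and 1431 without the 0.5 h array. The middle against the early window gave 4033 genes, beside 2284 with moved windows, the late window against 0 h 3402, beside 1902 with quantile normalization, and the smooth course 6911, beside 3704 with a straight line. The causes were not tested. No paired analysis was possible because the labels give no replicate numbers and each time point has 1 array. The signal over background of these probe sets is unknown, since ratios hold no intensity, so a small change of a dim transcript could not be told from noise.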
